A study of Homo sapiens with 16 samples.

Results

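The RNA of KOPTK1 cells was compared between 4 libraries in which the long non-coding RNA lnrCXCR4 was targeted and 2 control libraries. KOPTK1, also written Koptk1 in the labels, is an established human leukaemia cell line of the T-ALL type (T-cell acute lymphoblastic leukaemia, a cancer of immature T cells). The 6 libraries were chosen by their labels from the 16 of the series, which also holds 6 of the T-ALL line CUTLL1 and 4 of the T-ALL line HPB-ALL. 3 of the 6 came from cells infected with a CRISPR lentivirus, the control with a non-targeting guide and the targeted libraries with guide 1 or guide 2. The other 3 came from cells given an antisense oligonucleotide (ASO) in the medium at 1 uM, with a scrambled ASO in the control and ASO 1 or ASO 2 in the targeted libraries. No genotype beyond the line is labelled for any of the 6, and each kind of targeting had 1 control library. Whether the guides cut the gene or repressed it, how long the cells were treated and which RNA was selected is not given in the sources used here.

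Long non-coding RNAs are transcripts without a protein product, and some of them act on genes close to their own. CXCR4, the gene in the name of this one, encodes the receptor for the chemokine CXCL12, which holds blood cell precursors and T-ALL cells in the bone marrow. T-ALL cells keep much of the programme of the developing thymocyte, including NOTCH1 signalling, the MYC gene it drives, the T-cell receptor complex and, in cortical forms, the CD1 proteins and the recombinase.

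The 6 libraries hold between 36427450 and 72178929 reads, recovered from the deposited values as set out with the processing. 0 of the 57820 entries in the table carry the name lnrCXCR4, and its own level was not analysed here, so the fall of the target was not checked. As a measure of distance, the reads of each pair of libraries were compared gene by gene with a chi-square that averages 1 where libraries differ by counting error alone and grows with depth. It averaged 4.06 between the 2 controls, between 3.79 and 14.5 among the 4 targeted libraries, and between 187 and 270 from a control to a targeted library. Guide 1 was closer to ASO 2, at 3.79, and to ASO 1, at 4.29, than to guide 2, at 6.75. The mitochondrial share of the reads was 2.48% and 2.45% in the guide and ASO controls and from 3.0% to 3.25% in the targeted libraries. The 50 most abundant genes took 10.3% and 10.4% of the reads in controls and 11.7% to 12.2% with targeting, and the part of either shift in the results was not tested.

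The guide 1 library stands apart in a few transcripts of connective tissue. The collagen genes COL1A2 and COL3A1 were at 276 and 75.1 in it and at 0 in the other 5 libraries, POSTN, a matrix protein, was at 53 against 0, and FN1, fibronectin, was at 264 against 0 to 2.91. These 4 genes are those at 50 or more there and under 5 elsewhere, they make up 0.00136% of that library, and no gene meets the same rule in any other of the 6. Counts over all genes are given with and without this library.

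Levels below are deposited normalised counts, in the order guide control and ASO control, then guide 1, guide 2, ASO 1 and ASO 2. A gene was tested where its mean over the 6 libraries was 20 or more, and rose or fell where the adjusted p of the limma fit was under 0.05. Log2 fold changes are differences of log2(normalised count + 1) between targeted and control libraries with the kind of targeting as a term. They shrink toward 0 at low levels, and counts of genes by size of change use them. For single genes, folds written as higher or lower are ratios of the mean normalised counts of targeted and control libraries, with nothing added. In bulk RNA, fewer cells of a kind and less RNA per cell cannot be told apart, and levels are relative to the rest of each library. The 6 libraries came from cells treated separately, but the labels do not say that these were independent cultures. As read here, each guide and each ASO gave 1 library, so different reagents served as replicates. The p-values cover only the spread among these 6.

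The labelled cell type was checked against markers, and those of the T lineage were present. The 12 tested markers of this lineage summed to 207608 and 211662 in controls and to between 140301 and 146653 with targeting. The sum of 11 B-lineage markers went from 4567 and 4653 to between 522 and 633, nearly all of it from CD79A, CD79B and IGLL1, while MS4A1 and BANK1 were at 0 in all 6 libraries. Natural killer markers summed to 2380 and 2389 in controls and to between 423 and 512 with targeting, from NKG7, PRF1 and CST7. Myeloid markers, nearly all AIF1, went from 6520 and 6610 to between 4342 and 4632, with 6 of 12 at 0 throughout. The 11 erythroid and platelet markers, nearly all EPOR, summed to 230 and 240 in controls and 365 to 454 with targeting, with 7 at 0 in all 6 libraries. Epithelial and fibroblast markers, mostly VIM, summed to 32323 to 32359 and 34879 to 35877.

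**Figure D1:**
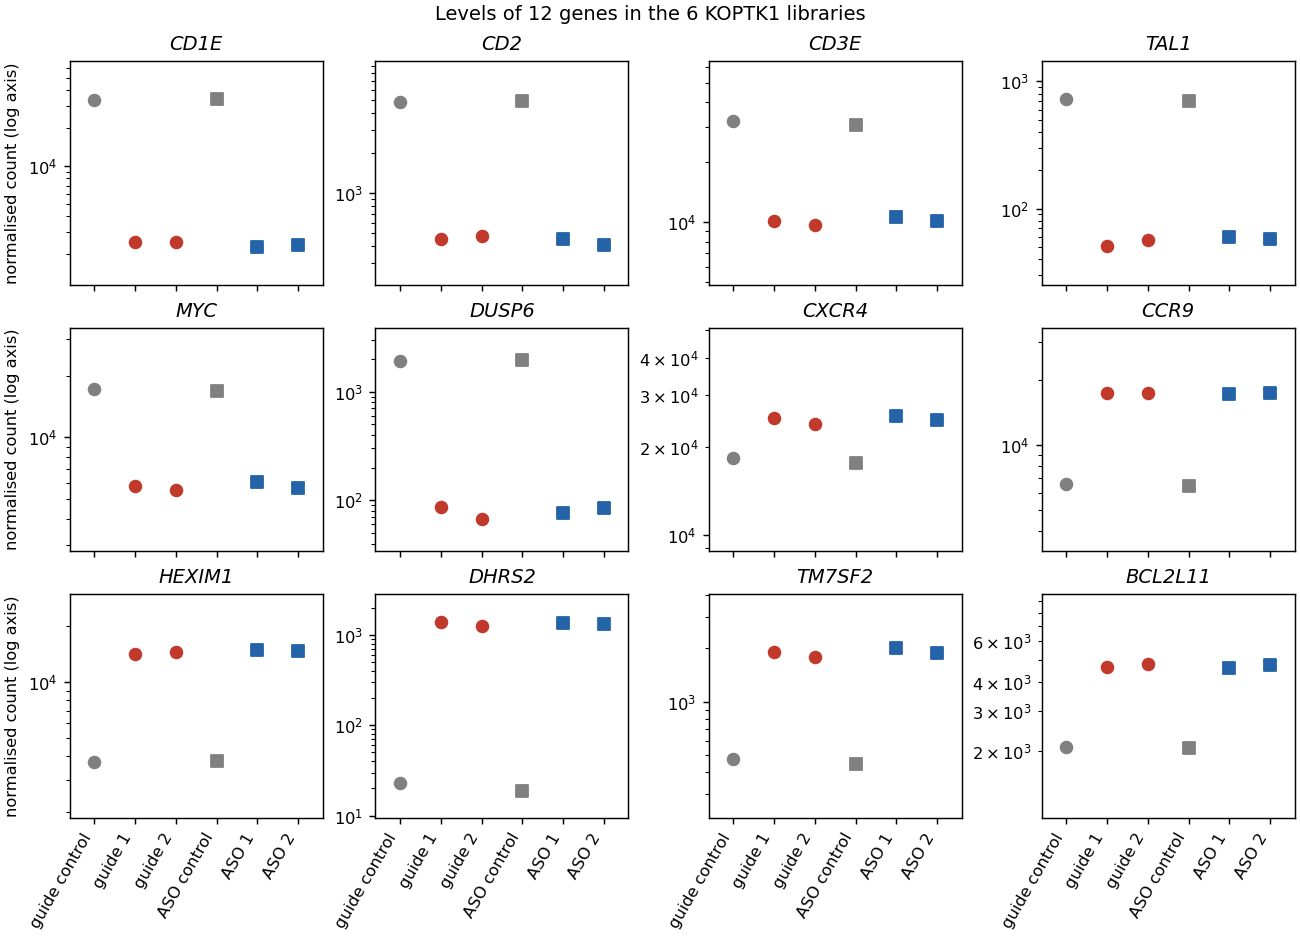
Normalised counts of 12 genes (vertical axis, log scale) in each of the 6 KOPTK1 libraries, 1 point per library, controls and targeted libraries coloured apart. CD1E, CD2, CD3E, TAL1, MYC and DUSP6 sit lower in all 4 targeted libraries than in both controls, and CXCR4, CCR9, HEXIM1, DHRS2, TM7SF2 and BCL2L11 sit higher.

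Most tested genes of these cells changed with targeting, and of 37 gene lists described below those of the T-cell and thymocyte programme had the lowest medians. Of 13081 genes tested, 9718 were called, which is 74.3%. Of these, 4751 rose, 36.3% of those tested, and 4967 fell, 38.0%. Without the guide 1 library, 4540 rose and 4845 fell. Rising genes made up 48.9% of the calls, and 57.2% where the libraries were scaled by quantiles, which moved the median log2 fold change over all tested genes from -0.0081 to 0.088. Large changes were mostly falls: 1511 genes fell and 501 rose by over 2-fold, and 491 fell and 86 rose by over 4-fold. All 4 targeted libraries lay above both controls for 38.7% of the genes tested and below both for 40.5%. With so many genes called, a count of members is read here against those shares.

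The effects of guides and of ASOs were compared gene by gene. Guides alone raised 31.4% of the tested genes and lowered 33.5%, and ASOs alone raised 31.1% and lowered 33.2%. Of the genes called with both, 7421 in all, 3 moved in opposite directions. They make up 87.3% of the calls with guides and 88.2% of those with ASOs. Across the 13081 genes, which are not independent, the 2 effects correlated at r = 0.961, and the median absolute difference between them was 0.109 on the log2 scale. The test of the difference called 0 genes, 0.0% of those tested, with a smallest adjusted p of 0.745 in limma and 0.671 in edgeR on the recovered reads. At an unadjusted p under 0.05 the difference held 787 genes in limma and 940 in edgeR. The count of 0 rested on both ASO libraries: without ASO 2 the difference was called for 38 genes as positive and 14 as negative, and without ASO 1 for 5 and 2. The calls thus do not show that guides and ASOs act alike.

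**Figure D2:**
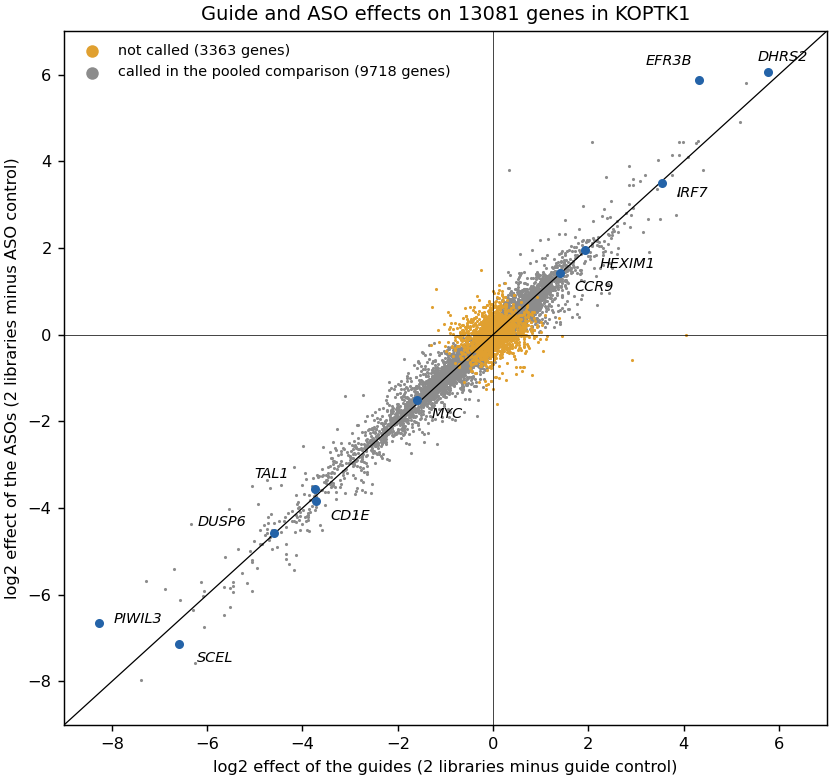
Effect of the guides (horizontal axis) against effect of the ASOs (vertical axis), each as a difference in log2(normalised count + 1) from its own control, for 13081 genes. Grey points are the 9718 genes called in the pooled comparison and orange points the 3363 others. Of the labelled genes, DHRS2 lies near the diagonal, at 5.78 and 6.06. PIWIL3, at -8.28 and -6.64, and EFR3B, at 4.33 and 5.88, lie further from it.

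The strongest rises mostly started from low levels. DHRS2, a short-chain dehydrogenase/reductase, went from 23.2 and 18.9 to 1402, 1265, 1341 and 1312, 63.1-fold higher (log2 fold change 5.92 ± 0.0920 SE, adjusted p = 9.40e-18). EFR3B, which anchors a lipid kinase at the plasma membrane, went from 16.5 and 5.87 to 347, 353, 377 and 433. The 2 EFR3B controls differ more than the targeted libraries do, so its effect was 4.33 with guides and 5.88 with ASOs. IRF7, the transcription factor that drives type I interferon genes, was the most abundant of the 12 strongest risers and went from 112 and 134 to 1304, 1329, 1517 and 1526, 11.5-fold higher (log2 fold change 3.52 ± 0.0664 SE, adjusted p = 8.00e-17). SPNS2, a sphingosine-1-phosphate exporter, went from 22.3 and 23.5 to 373, 414, 456 and 381, and the transcription factor MAFA from 10.7 and 7.17 to 123, 132, 130 and 137. BAIAP3, DACT3, CGREF1, ZCCHC24, CYP46A1, NRIP3 and ATP1B2 complete the 12. Lack of overlap between targeted libraries and controls was a condition for choosing these 12.

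The strongest falls ended close to 0, where a fitted fold depends on the pseudocount, and their levels are given instead. TUSC5 went from 368 and 340 to 1.23, 1.15, 0.876 and 0, and PIWIL3, of the family that binds small RNAs in the germline, from 309 and 317 to 0, 0, 1.75 and 2.68. CCR8, a chemokine receptor of T cells, went from 481 and 439 to 3.69, 6.90, 3.50 and 5.36. SCEL, sciellin, a protein of the epithelial cell envelope, was abundant in the controls and went from 2671 and 2708 to 25.9, 27.6, 19.3 and 17.4, 119-fold lower (log2 fold change -6.86 ± 0.148 SE, adjusted p = 4.02e-16). PRG4, the lubricin gene, went from 886 and 816 to 6.16, 6.90, 8.76 and 18.8. LIF, a cytokine, went from 220 and 201 to 2.46, 4.60, 4.38 and 1.34, and PIK3AP1, a PI3K adaptor, from 102 and 119 to 0, 1.15, 4.38 and 0. FGD5, CCDC26, NUGGC, BMP10 and ANKRD1 complete the 12 strongest falls, each at 98.8 or more in both controls and at 6.90 or less in the 4 targeted libraries.

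CXCR4 rose. It went from 18309 and 17550 to 25023, 23881, 25459 and 24588, 1.38-fold higher (log2 fold change 0.46 ± 0.0399 SE, adjusted p = 1.38e-08), and the groups did not overlap. Of 12 tested genes in a list of CXCR4 and genes near it on the long arm of chromosome 2, 6 rose and 5 fell. Over all tested genes 36.3% rose and 38.0% fell. The median log2 fold change of the list was 0.095. Changes of either sign lay side by side, and both signs were also common over all genes. MCM6, a subunit of the replicative helicase, went from 35329 and 35232 to 50832, 50437, 50324 and 49766 and rose by 0.51, while LCT, the lactase gene next to it, went from 868 and 805 to 337, 353, 373 and 370 and fell by 1.22. DARS, the aspartyl-tRNA synthetase, lies between MCM6 and CXCR4, and it went from 7593 and 7608 to 5200, 5194, 5049 and 4948 and fell by 0.58. MGAT5, which builds branched sugar chains, rose by 0.65 and TMEM163, a zinc transporter, fell by 1.04. UBXN4, R3HDM1 and RAB3GAP1 rose by 0.49, 0.40 and 0.27, and SPOPL fell by 0.51. CCNT2, a cyclin of P-TEFb, had a value of -0.078 and no call. ZRANB3 fell by 0.15 (adjusted p = 0.0449), a call that most other settings did not keep and whose sign turned under quantile scaling, to 0.055.

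Genes of the T-cell receptor and its nearest kinases mostly fell. Of 24 tested, 21 fell and 3 rose, with a median log2 fold change of -1.32. CD3E, the receptor's epsilon chain, went from 32132 and 30756 to 10138, 9738, 10610 and 10201, 3.09-fold lower (log2 fold change -1.63 ± 0.0419 SE, adjusted p = 2.85e-15). LCK, the kinase that starts the receptor's signal, went from 37519 and 37014 to 11944, 11629, 12127 and 12007, 3.12-fold lower (log2 fold change -1.64 ± 0.0374 SE, adjusted p = 6.54e-16). The adaptor GRAP2 went from 8973 and 8675 to 835, 865, 957 and 831, 10.1-fold lower (log2 fold change -3.34 ± 0.0599 SE, adjusted p = 4.50e-17). TRAC, the alpha chain constant region, was low throughout and went from 142 and 199 to 17.2, 13.8, 20.1 and 48.3. The chains did not move together. CD3D fell by 0.46 and CD3G by 0.13, from 10728 and 11210 to 9700, 10768, 9219 and 10452, where a guide 2 library lies between the controls. CD247, the zeta chain, went the other way, from 11479 and 11345 to 15217, 14585, 15919 and 15153 (log2 fold change 0.41 ± 0.0406 SE, adjusted p = 7.40e-08), and the kinase FYN rose by 0.59 and the phospholipase PLCG1 by 0.42.

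Every one of the 20 tested T-cell surface and coreceptor genes fell, with a median of -1.71. CD2, an adhesion receptor, went from 4853 and 4903 to 454, 479, 451 and 413, 10.9-fold lower (log2 fold change -3.44 ± 0.0636 SE, adjusted p = 6.07e-17). CD28, the costimulatory receptor, went from 8154 and 8324 to 1351, 1316, 1370 and 1422, 6.04-fold lower (log2 fold change -2.59 ± 0.0472 SE, adjusted p = 4.96e-17). The coreceptors CD4 and CD8A went from 2714 and 2596 to 957, 937, 855 and 894 and from 4694 and 4606 to 1498, 1374, 1524 and 1404. CD5, which damps receptor signals, went from 7552 and 7376 to 1576, 1610, 1690 and 1579. The smallest falls were those of SPN, CD7 and CD82, by 0.13, 0.23 and 0.23.

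Cortical thymocyte and recombination genes fell in 15 of 15 tested cases, with a median of -1.72. CD1A, CD1B and CD1C present lipids, and these and CD1E mark the cortical stage. CD1A went from 2995 and 2903 to 81.3, 92.1, 75.3 and 109, 33-fold lower (log2 fold change -5.04 ± 0.122 SE, adjusted p = 1.30e-15). CD1B went from 12700 and 12528 to 619, 587, 594 and 685, 20.3-fold lower (log2 fold change -4.34 ± 0.0613 SE, adjusted p = 3.90e-18), and CD1E from 33197 and 33763 to 2514, 2513, 2308 and 2377, 13.8-fold lower. In each of these genes the 4 targeted libraries lie close together and far under the controls. DNTT, the terminal transferase that adds bases to receptor joints, went from 7415 and 7435 to 589, 532, 559 and 571, 13.2-fold lower (log2 fold change -3.72 ± 0.0577 SE, adjusted p = 9.40e-18). RAG1, of the recombinase, went from 2162 and 2194 to 275, 277, 324 and 244, 7.78-fold lower (log2 fold change -2.96 ± 0.0927 SE, adjusted p = 3.26e-14), and RAG2 fell by 1.60. PTCRA, the surrogate alpha chain of the pre-T-cell receptor, was low and went from 119 and 108 to 35.7, 23, 28.9 and 34.9.

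Among transcription factors that drive T-ALL, 6 of 6 tested fell, with a median of -0.67, and 14 others lay under the filter. TAL1, a basic helix-loop-helix factor of one T-ALL subtype, went from 721 and 706 to 50.5, 56.4, 59.6 and 57.6, 12.7-fold lower (log2 fold change -3.65 ± 0.125 SE, adjusted p = 1.05e-13). ERG, an ETS factor, went from 910 and 846 to 122, 89.8, 115 and 81.8, 8.60-fold lower (log2 fold change -3.11 ± 0.140 SE, adjusted p = 3.35e-12). LMO2, a bridging partner of TAL1, fell less, from 9169 and 9087 to 6275, 5924, 6284 and 6326 (log2 fold change -0.56 ± 0.0417 SE, adjusted p = 2.27e-09), and its call was lost where the spread was taken from all 16 libraries (adjusted p = 0.123). MYB, a factor of haematopoietic precursors, went from 19161 and 18623 to 12455, 12389, 11948 and 12091 and fell by 0.63.

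Factors of the T lineage fell in 17 cases and rose in 4 of 23 tested, or in 20 and 3 under quantile scaling, with a median of -0.35, and 17 fell and 2 rose without the ASO control. IKZF1, Ikaros, went from 21631 and 21477 to 5326, 5703, 5226 and 5654, 3.93-fold lower (log2 fold change -1.98 ± 0.0445 SE, adjusted p = 5.96e-16), and its relatives IKZF3 and IKZF2 fell by 1.63 and 1.50. GATA3, which commits cells to the T lineage, went from 5543 and 5371 to 2690, 2662, 2845 and 2771, 1.99-fold lower. In contrast ID2, which blocks the E proteins, went from 36.8 and 41.1 to 161, 145, 144 and 169, 3.97-fold higher (log2 fold change 1.96 ± 0.145 SE, adjusted p = 1.97e-09), and ID1 from 20.3 and 20.2 to 41.9, 33.4, 31.5 and 49.6. The E proteins TCF3 and TCF12 fell by 0.72 and 0.35.

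In the NOTCH pathway the receptors rose and many known targets fell. Of 21 tested genes 6 rose and 12 fell, with a median of -0.48. NOTCH1 went from 18394 and 17627 to 23747, 24675, 25913 and 26157, 1.39-fold higher (log2 fold change 0.48 ± 0.0423 SE, adjusted p = 1.95e-08), and NOTCH3 from 6628 and 6214 to 10249, 10665, 11366 and 11533, 1.71-fold higher (log2 fold change 0.77 ± 0.0480 SE, adjusted p = 2.16e-10). In both genes all targeted libraries lie over the controls. Of the targets, IL7R, the interleukin 7 receptor, went from 913 and 906 to 155, 161, 159 and 155, 5.76-fold lower (log2 fold change -2.52 ± 0.0883 SE, adjusted p = 1.40e-13). DTX1, a modulator of the pathway, went from 19792 and 18985 to 9759, 9497, 10416 and 10225 and fell by 0.96, and HES1, a repressor, from 567 and 571 to 432, 349, 386 and 394 and fell by 0.55. HES4, of the same family, rose by 0.67. RBPJ, the DNA-binding partner of NOTCH, had a value of -0.063 and no call.

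MYC fell and several of the genes that oppose it rose. MYC went from 17124 and 16789 to 5764, 5569, 6086 and 5689, 2.94-fold lower (log2 fold change -1.55 ± 0.0431 SE, adjusted p = 6.97e-15). MXD1, which competes with MYC for its partner MAX, went from 456 and 428 to 1088, 1161, 1146 and 1110, 2.55-fold higher (log2 fold change 1.35 ± 0.0638 SE, adjusted p = 6.30e-12). MXI1, of the same kind, went from 352 and 323 to 788, 749, 736 and 701, 2.21-fold higher (log2 fold change 1.14 ± 0.0699 SE, adjusted p = 1.78e-10). MXD3 and MXD4 rose by 0.85 and 0.53, and FBXW7, which marks MYC and NOTCH1 for destruction, by 0.51. MNT, another MAX partner, fell by 0.55. Over the network of 12 tested genes 7 rose and 4 fell.

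Nucleolar factors that build ribosomes, a set known to respond to MYC, fell in 27 of 29 tested genes, and 0 rose, with a median of -0.63. MYBBP1A, a nucleolar protein that binds MYB, went from 9754 and 9383 to 4249, 4211, 4480 and 4361, 2.21-fold lower (log2 fold change -1.15 ± 0.0432 SE, adjusted p = 3.56e-13). RRS1, needed for the large subunit, went from 3007 and 2968 to 1280, 1325, 1294 and 1393, 2.26-fold lower (log2 fold change -1.18 ± 0.0533 SE, adjusted p = 3.62e-12), and UTP20, needed for the small subunit, from 7080 and 6717 to 3371, 3586, 3300 and 3379, 2.02-fold lower (log2 fold change -1.02 ± 0.0442 SE, adjusted p = 2.11e-12). The most abundant members moved less: NPM1 fell by 0.19, NCL by 0.086, and NOP56 had a value of 0.075 and no call.

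MYC and MAX bind the E-box CACGTG, so promoters were read for it in the RefSeq set for GRCh38.p14, which spans 250 bases before to 50 after each start. CACGTG, the same on both strands, was present in 8 of the 24 nucleolar genes with a promoter in that set, 33.3%, and in 2030 of all 27305 promoters, 7.44%. A match is a description of letters and no site was measured here. As an example, the stretch upstream of UTP20, on the plus strand at chr12:101280075-101280104, holds the box, shown in capitals, 10 bases before the start.
UTP20: gcgccgttcttttttccgtcCACGTGaccc

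Genes of polyamine and nucleotide synthesis were mixed, with 16 falling and 8 rising of 26 tested and a median of -0.29. SRM, spermidine synthase, went from 8904 and 8677 to 4734, 4543, 4919 and 4863, 1.84-fold lower (log2 fold change -0.88 ± 0.0434 SE, adjusted p = 9.79e-12). SAT1, which acetylates spermidine for breakdown, went the other way, from 2130 and 2279 to 5753, 5335, 5685 and 5425, 2.52-fold higher (log2 fold change 1.33 ± 0.0477 SE, adjusted p = 1.84e-13). ODC1, the entry enzyme of the route, fell by 0.13. Of the purine and pyrimidine enzymes, DHODH fell by 0.84 and IMPDH1 by 0.70, while IMPDH2 rose by 0.60.

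HEXIM1, which binds 7SK RNA and holds the elongation kinase P-TEFb inactive, rose from 3741 and 3794 to 14141, 14502, 14783 and 14626, 3.85-fold higher (log2 fold change 1.95 ± 0.0385 SE, adjusted p = 1.51e-16). Its paralog HEXIM2 fell from 255 and 275 to 66.5, 55.2, 56.1 and 77.7, 4.15-fold lower (log2 fold change -2.05 ± 0.158 SE, adjusted p = 3.28e-09). The kinase subunit CDK9 went from 3226 and 3121 to 4835, 4679, 4940 and 4932 and rose by 0.61. BRD2, a BET protein that reads acetylated histones, went from 25681 and 24741 to 44895, 43611, 45961 and 44337, 1.77-fold higher (log2 fold change 0.83 ± 0.0383 SE, adjusted p = 4.70e-12), while BRD3 rose by 0.27. Of the 19 tested genes of BET proteins and P-TEFb, 10 rose and 3 fell.

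Replication-dependent histone genes were low in all 6 libraries and 12 of 17 tested rose, with 0 falling and a median of 0.88. Without 1 library at a time the count that rose ran from 8 to 15. HIST1H2AC went from 64.9 and 54.1 to 223, 254, 207 and 259, 3.96-fold higher (log2 fold change 1.97 ± 0.131 SE, adjusted p = 4.81e-10), and HIST1H2AG from 77.5 and 82.2 to 305, 281, 266 and 259, 3.48-fold higher (log2 fold change 1.78 ± 0.111 SE, adjusted p = 1.99e-10). HIST1H3H went from 10.7 and 15 to 77.6, 48.3, 68.3 and 67. Histone genes are near copies of each other and most of their mRNA lacks a poly(A) tail, so the split of reads among them is uncertain. Their share of the reads was 0.00178% and 0.00203% in controls and 0.00333% to 0.00416% with targeting.

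Mitosis genes rose in 21 of 25 tested cases and fell in 0, with a median of 0.42. CDC20, which activates the anaphase ligase, went from 13069 and 12943 to 21346, 20086, 22017 and 20811, 1.62-fold higher (log2 fold change 0.69 ± 0.0413 SE, adjusted p = 1.16e-10). CCNB2, a mitotic cyclin, went from 5971 and 6101 to 9157, 8329, 9174 and 8286, 1.45-fold higher (log2 fold change 0.53 ± 0.0494 SE, adjusted p = 3.76e-08), and the kinase CDK1 from 10232 and 10678 to 16072, 16081, 14911 and 15020. MKI67, the Ki-67 antigen, rose by 0.30. PLK1, BIRC5 and BUB1B were at 0.017, 0.014 and 0.004 with no call.

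Replication genes were mixed, with 15 rising and 7 falling of 29. RRM2, of ribonucleotide reductase, went from 26480 and 26544 to 47654, 48244, 46848 and 46651, 1.79-fold higher (log2 fold change 0.84 ± 0.0359 SE, adjusted p = 1.83e-12), and CLSPN, a fork checkpoint protein, from 6794 and 6475 to 11536, 12157, 11549 and 11919, 1.78-fold higher (log2 fold change 0.83 ± 0.0407 SE, adjusted p = 9.79e-12). The helicase subunits did not move together: MCM6 rose as given above, MCM4 rose by 0.26, and MCM2 went from 34750 and 33750 to 23492, 23132, 24229 and 24191 and fell by 0.53, with MCM7, MCM5 and MCM3 falling by 0.44, 0.32 and 0.17.

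Of 17 tested G1 cyclins, kinases and inhibitors, 11 rose and 5 fell. The inhibitor CDKN1B, p27, went from 2089 and 2311 to 3383, 3616, 3252 and 3343, 1.54-fold higher (log2 fold change 0.63 ± 0.0552 SE, adjusted p = 1.83e-08), and CDKN1A, p21, from 92 and 95.8 to 193, 191, 208 and 217, 2.15-fold higher (log2 fold change 1.10 ± 0.113 SE, adjusted p = 1.38e-07). The kinase CDK6, a partner of CCND3 in T-ALL, went from 74341 and 74020 to 47312, 57344, 46966 and 52226 and fell by 0.55, CCND3 fell by 0.48, and RBL2, a pocket protein, fell by 0.66.

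Cholesterol synthesis genes mostly rose, with 20 of 24 tested genes higher and 2 lower and a median of 0.47. TM7SF2, a sterol reductase, went from 478 and 442 to 1903, 1779, 2015 and 1878, 4.12-fold higher (log2 fold change 2.04 ± 0.0633 SE, adjusted p = 2.97e-14). INSIG1, which senses sterols and restrains the pathway, went from 17221 and 17879 to 38222, 40564, 37383 and 39462, 2.22-fold higher (log2 fold change 1.15 ± 0.0413 SE, adjusted p = 1.89e-13). MVK, mevalonate kinase, went from 1278 and 1200 to 2048, 2064, 2238 and 2209, 1.73-fold higher (log2 fold change 0.79 ± 0.0555 SE, adjusted p = 1.05e-09). LSS, the enzyme that closes the sterol rings, rose by 0.95. FDPS and PMVK fell by 0.27 and 0.29.

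The promoters of these 3 sets share a sequence feature. The box CCAAT, bound by the factor NF-Y, was present on either strand (as CCAAT or ATTGG) in 19 of 21 mitosis promoters, 90.5%, in 15 of 18 cholesterol promoters, 83.3%, and in 17 of 20 histone promoters, 85%. Of all 27305 promoters 9747 held it, 35.7%, and of the nucleolar genes 7 of 24, 29.2%. CACGTG was in 4 of the mitosis promoters, 19%, in 3 of the cholesterol promoters, 16.7%, and in 0 of the histone promoters. Of all promoters 7.44% held it, so the mitosis and cholesterol lists were also above that share. CCAAT boxes have long been described in promoters of all 3 kinds, and NF-Y itself was not measured. The stretches shown lie upstream of the start in GRCh38.p14 and are written 5′ to 3′ on the gene's strand with each box in capitals. That of CCNB2, on the plus strand at chr15:59104896-59105116, holds 4 boxes, that of MVK, on the plus strand at chr12:109573564-109573772, holds 5, and that of HIST1H2BK, on the minus strand at chr6:27146913-27147089, holds 6. HIST1H2BK itself went from 273 and 276 to 377, 358, 381 and 373 and rose by 0.44.
CCNB2: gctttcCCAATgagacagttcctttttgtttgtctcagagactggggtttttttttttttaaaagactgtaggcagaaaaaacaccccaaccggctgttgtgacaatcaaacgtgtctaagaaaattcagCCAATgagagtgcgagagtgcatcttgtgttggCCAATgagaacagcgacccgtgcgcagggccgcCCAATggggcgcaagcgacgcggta
MVK: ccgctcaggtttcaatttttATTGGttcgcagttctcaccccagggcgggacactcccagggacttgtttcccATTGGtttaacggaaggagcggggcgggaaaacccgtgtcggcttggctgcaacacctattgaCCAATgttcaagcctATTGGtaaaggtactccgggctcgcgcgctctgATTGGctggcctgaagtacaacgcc
HIST1H2BK: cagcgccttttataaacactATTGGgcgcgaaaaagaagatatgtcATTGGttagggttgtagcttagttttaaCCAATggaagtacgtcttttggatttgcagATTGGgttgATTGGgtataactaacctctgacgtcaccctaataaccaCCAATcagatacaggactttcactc

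In the BCL2 family, 6 of 13 tested rose and 5 fell, near the shares of all genes. BCL2, a survival protein, went from 3676 and 3813 to 1499, 1589, 1412 and 1578, 2.46-fold lower (log2 fold change -1.30 ± 0.0565 SE, adjusted p = 2.10e-12), and BCL2L1 from 12125 and 12030 to 6979, 6739, 7001 and 6980. MCL1, another survival protein, rose from 8968 and 9512 to 15339, 15768, 14537 and 14851, 1.64-fold higher (log2 fold change 0.71 ± 0.0431 SE, adjusted p = 1.50e-10). The death-promoting BCL2L11, BIM, went from 2084 and 2058 to 4638, 4802, 4585 and 4761, 2.27-fold higher (log2 fold change 1.18 ± 0.0444 SE, adjusted p = 3.39e-13). BMF and BBC3, of the same class, rose from 122 and 120 to 296, 277, 281 and 260 and from 59.1 and 73 to 129, 127, 129 and 122, while BAX fell by 0.38.

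Listed p53 targets rose in 14 and fell in 7 of 22 tested, with a median of 0.54. TP53INP1, a stress-response protein, went from 665 and 707 to 1872, 2270, 1882 and 1914, 2.89-fold higher (log2 fold change 1.53 ± 0.0722 SE, adjusted p = 6.08e-12), and SESN1, a sestrin that restrains mTOR, from 792 and 808 to 1967, 2042, 1977 and 1976, 2.49-fold higher (log2 fold change 1.31 ± 0.0527 SE, adjusted p = 7.62e-13). MDM2, the p53 ligase, fell by 0.24, FAS by 0.80 and TP53I3, an oxidoreductase, by 1.18, so the list did not move as a whole. Of FOXO and PI3K genes 14 rose and 10 fell of 25. FOXO1 went from 74.6 and 77.6 to 208, 250, 245 and 224, 3.05-fold higher (log2 fold change 1.59 ± 0.120 SE, adjusted p = 2.41e-09), and TXNIP, which limits glucose uptake, from 1450 and 1418 to 2690, 2524, 2546 and 2495 (adjusted p = 1.16e-10, and 0.0678 with the spread of all 16 libraries).

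Homing receptors and adhesion molecules mostly fell. Of 24 tested 19 fell and 5 rose, CXCR4 among them, with a median of -1.23. ITGA4, an integrin chain, went from 24034 and 23720 to 3511, 3672, 3352 and 3456, 6.83-fold lower (log2 fold change -2.77 ± 0.0417 SE, adjusted p = 7.78e-18). S1PR1, the receptor of thymic exit, went from 558 and 527 to 123, 105, 117 and 103, and CCR7, which guides cells to lymph nodes, from 517 and 510 to 129, 100, 122 and 164. CCR9, the thymic and gut homing receptor, was the largest rise of the list, from 6605 and 6424 to 17511, 17439, 17261 and 17393, 2.67-fold higher (log2 fold change 1.42 ± 0.0373 SE, adjusted p = 3.76e-15). ITGB1, the beta chain that pairs with ITGA4, rose by 0.60.

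Cytokine signalling genes rose in 11 and fell in 6 of 21 tested, and 7 rose and 6 fell without ASO 2. Besides IL7R, STAT5A, the factor that carries its signal, went from 10088 and 9675 to 2861, 2676, 2873 and 2938, 3.48-fold lower (log2 fold change -1.80 ± 0.0473 SE, adjusted p = 3.76e-15), while STAT5B had a value of -0.028 and no call. JAK1, the kinase of the same receptor, went from 5849 and 5639 to 10760, 11105, 10321 and 10578, 1.86-fold higher (log2 fold change 0.90 ± 0.0392 SE, adjusted p = 2.33e-12), and JAK3 fell by 0.40. PIM2, a survival kinase, went from 527 and 514 to 1572, 1563, 1684 and 1598, 3.08-fold higher (log2 fold change 1.62 ± 0.0583 SE, adjusted p = 1.90e-13).

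Interferon response genes fell in 18 and rose in 7 of 26 tested, with a median of -0.58, and IRF7 is among those that rose. OAS3, which makes the activator of RNase L, went from 6386 and 5866 to 1004, 1028, 1002 and 1109, 5.92-fold lower (log2 fold change -2.56 ± 0.0580 SE, adjusted p = 6.33e-16). MX1, an antiviral GTPase, was low and went from 78.5 and 93.9 to 14.8, 8.06, 10.5 and 16.1. STAT2, which carries the interferon signal, rose from 3312 and 3199 to 5994, 6167, 6270 and 6371, 1.90-fold higher (log2 fold change 0.93 ± 0.0434 SE, adjusted p = 5.23e-12). Sensors of nucleic acids fell in 13 and rose in 2 of 20 (1 without the ASO control), with TLR3 going from 330 and 336 to 94.8, 86.3, 72.7 and 68.4 and TLR7 from 80.4 and 87.4 to 16, 20.7, 14 and 20.1.

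MAPK feedback genes fell in 8 and rose in 4 of 13. DUSP6, the phosphatase that ERK induces against itself, had the deepest fall of the list, from 1897 and 1934 to 87.4, 67.9, 76.2 and 84.5, 24.2-fold lower (log2 fold change -4.59 ± 0.112 SE, adjusted p = 1.53e-15). SPRED2, another brake of the route, went from 2271 and 2130 to 961, 902, 910 and 878, 2.41-fold lower (log2 fold change -1.27 ± 0.0566 SE, adjusted p = 2.90e-12). JUNB fell by 0.86, a call lost with the spread of all 16 libraries (adjusted p = 0.0741), while JUN went from 26.2 and 38.5 to 69, 49.5, 94.6 and 80.4 and IER3 from 114 and 123 to 266, 265, 281 and 295. Of NF-kB genes 9 fell and 3 rose of 14, with NFKB1 going from 3208 and 2997 to 1554, 1540, 1566 and 1568, 1.99-fold lower.

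HLA and antigen processing genes were mixed. Of 16 tested 5 rose and 10 fell. B2M, the light chain of class I, went from 49777 and 52063 to 77331, 75384, 74352 and 72253, 1.47-fold higher (log2 fold change 0.56 ± 0.0395 SE, adjusted p = 1.18e-09), and HLA-C from 27854 and 27827 to 39927, 37886, 41636 and 41102, 1.44-fold higher. PSMB8, of the immunoproteasome, went from 11047 and 10985 to 5211, 4879, 5236 and 4875, 2.18-fold lower (log2 fold change -1.13 ± 0.0448 SE, adjusted p = 6.74e-13), and the trimming enzymes ERAP1 and ERAP2 fell by 1.11 and 1.04. HLA genes share sequence, so the split of reads among them is uncertain.

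Lysosome and autophagy genes rose in 19 and fell in 3 of 24 tested, with a median of 0.49. NEU1, a sialidase, went from 2266 and 2190 to 6549, 6366, 6902 and 6536, 2.96-fold higher (log2 fold change 1.56 ± 0.0453 SE, adjusted p = 1.19e-14), and WIPI1, which binds the forming autophagosome, from 140 and 127 to 447, 486, 413 and 469, 3.40-fold higher (log2 fold change 1.76 ± 0.0921 SE, adjusted p = 2.29e-11). SQSTM1, the p62 adaptor, went from 3247 and 3283 to 6027, 5434, 6054 and 5854 and MAP1LC3B rose by 0.95. TFEB, the factor that activates such genes, went the other way, from 450 and 443 to 209, 167, 207 and 185, 2.33-fold lower (log2 fold change -1.22 ± 0.107 SE, adjusted p = 1.91e-08).

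Fatty acid synthesis genes rose in 9 and fell in 3 of 16, with a median of 0.45. ACSL1 rose from 971 and 974 to 1980, 2046, 1949 and 1843. ACSL3 rose from 4331 and 4517 to 7732, 7936, 7169 and 7771. The falls included ACSL5, a fatty acid activating enzyme, from 4218 and 4227 to 335, 353, 362 and 336, 12.2-fold lower (log2 fold change -3.60 ± 0.0643 SE, adjusted p = 4.45e-17). ELOVL6, an elongase, went from 1086 and 1116 to 248, 321, 271 and 277, 3.94-fold lower. Glycolysis and hypoxia genes were mixed, 12 up and 7 down of 23. The glucose transporter SLC2A3 went from 319 and 313 to 64, 63.3, 80.6 and 68.4, 4.57-fold lower, and hexokinase HK2 from 2845 and 2830 to 1248, 1337, 1252 and 1244, while the aldolase ALDOC went from 207 and 233 to 723, 586, 681 and 678, 3.03-fold higher.

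All 15 genes of the mitochondrial genome rose, with a median of 0.38, but under quantile scaling 14 rose, with a median of 0.18. Of 28 nuclear genes of oxidative phosphorylation 10 rose and 10 fell, near the share of all genes, and 6 rose and 8 fell without the ASO control. MT-RNR2, the large mitochondrial ribosomal RNA, went from 72452 and 76073 to 108700, 106930, 106280 and 112950, 1.46-fold higher (log2 fold change 0.55 ± 0.0386 SE, adjusted p = 9.97e-10). Among nuclear subunits SDHA of complex II rose by 0.70. Cytosolic ribosomal protein genes moved little. Of 35, 24 rose and 0 fell with a median of 0.14, but under quantile scaling 9 rose and 4 fell, and without 1 library at a time from 13, without the ASO control, to 29 rose. RPLP0 went from 57837 and 58305 to 75964, 70918, 77828 and 74132, 1.29-fold higher.

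The amino acid response genes under ATF4 fell in 14 and rose in 8 of 25 tested. TRIB3, a pseudokinase that ATF4 induces, went from 2109 and 2012 to 480, 465, 456 and 480, 4.38-fold lower (log2 fold change -2.13 ± 0.0637 SE, adjusted p = 1.76e-14), and SLC38A1, a glutamine transporter, from 28070 and 28264 to 13058, 14150, 12771 and 13326, 2.11-fold lower (log2 fold change -1.08 ± 0.0423 SE, adjusted p = 5.64e-13). Chaperones of the endoplasmic reticulum fell in 12 and rose in 4 of 21. HSPA5, BiP, went from 15990 and 15644 to 6922, 6678, 6796 and 6578, 2.35-fold lower (log2 fold change -1.23 ± 0.0396 SE, adjusted p = 4.72e-14), and XBP1, which drives such genes, from 1375 and 1342 to 477, 434, 442 and 485, 2.96-fold lower (log2 fold change -1.56 ± 0.0715 SE, adjusted p = 4.01e-12). Heat shock genes were even, 8 up and 8 down of 19. HSPA1A, whose reads can fall on its near copy HSPA1B, was low, at 14.5 and 26.7 and then 45.6, 38, 34.2 and 50.9.

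Genes that write and erase chromatin marks were mixed, near the shares of all genes for Polycomb, DNA methylation and TET genes (9 up and 7 down of 20). The DNA methyltransferase DNMT3A went from 5111 and 5178 to 2291, 2319, 2369 and 2450, 2.18-fold lower (log2 fold change -1.13 ± 0.0452 SE, adjusted p = 7.62e-13), and its relative DNMT3B from 3481 and 3342 to 4950, 5162, 5160 and 5125, 1.49-fold higher (log2 fold change 0.58 ± 0.0437 SE, adjusted p = 2.50e-09). TET1 fell by 1.18 and EZH2, the Polycomb methyltransferase, rose by 0.29. Of 22 deacetylase, sirtuin and demethylase genes 12 rose and 5 fell. HDAC9 went from 695 and 761 to 176, 204, 158 and 173, 4.10-fold lower (log2 fold change -2.03 ± 0.104 SE, adjusted p = 1.62e-11), and SIRT1 from 2589 and 2594 to 5234, 5349, 5070 and 5164, 2.01-fold higher (log2 fold change 1.01 ± 0.0429 SE, adjusted p = 1.70e-12).

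Several genes of other lineages that KOPTK1 expresses fell as well, while the 1 tested erythroid or platelet marker rose by 0.83. IGLL1, the surrogate light chain of B-cell precursors, went from 1949 and 1966 to 54.2, 61, 55.2 and 49.6, 35.6-fold lower (log2 fold change -5.13 ± 0.112 SE, adjusted p = 4.43e-16). CD79A, of the B-cell receptor, went from 2005 and 1893 to 362, 337, 405 and 386, and NKG7, of cytotoxic granules, from 1702 and 1708 to 390, 300, 340 and 316. Of the T lineage itself, CD40LG, a ligand of activated T cells, went from 2633 and 2560 to 91.1, 102, 113 and 101, 25.5-fold lower (log2 fold change -4.66 ± 0.0957 SE, adjusted p = 2.19e-16).

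**Figure D3:**
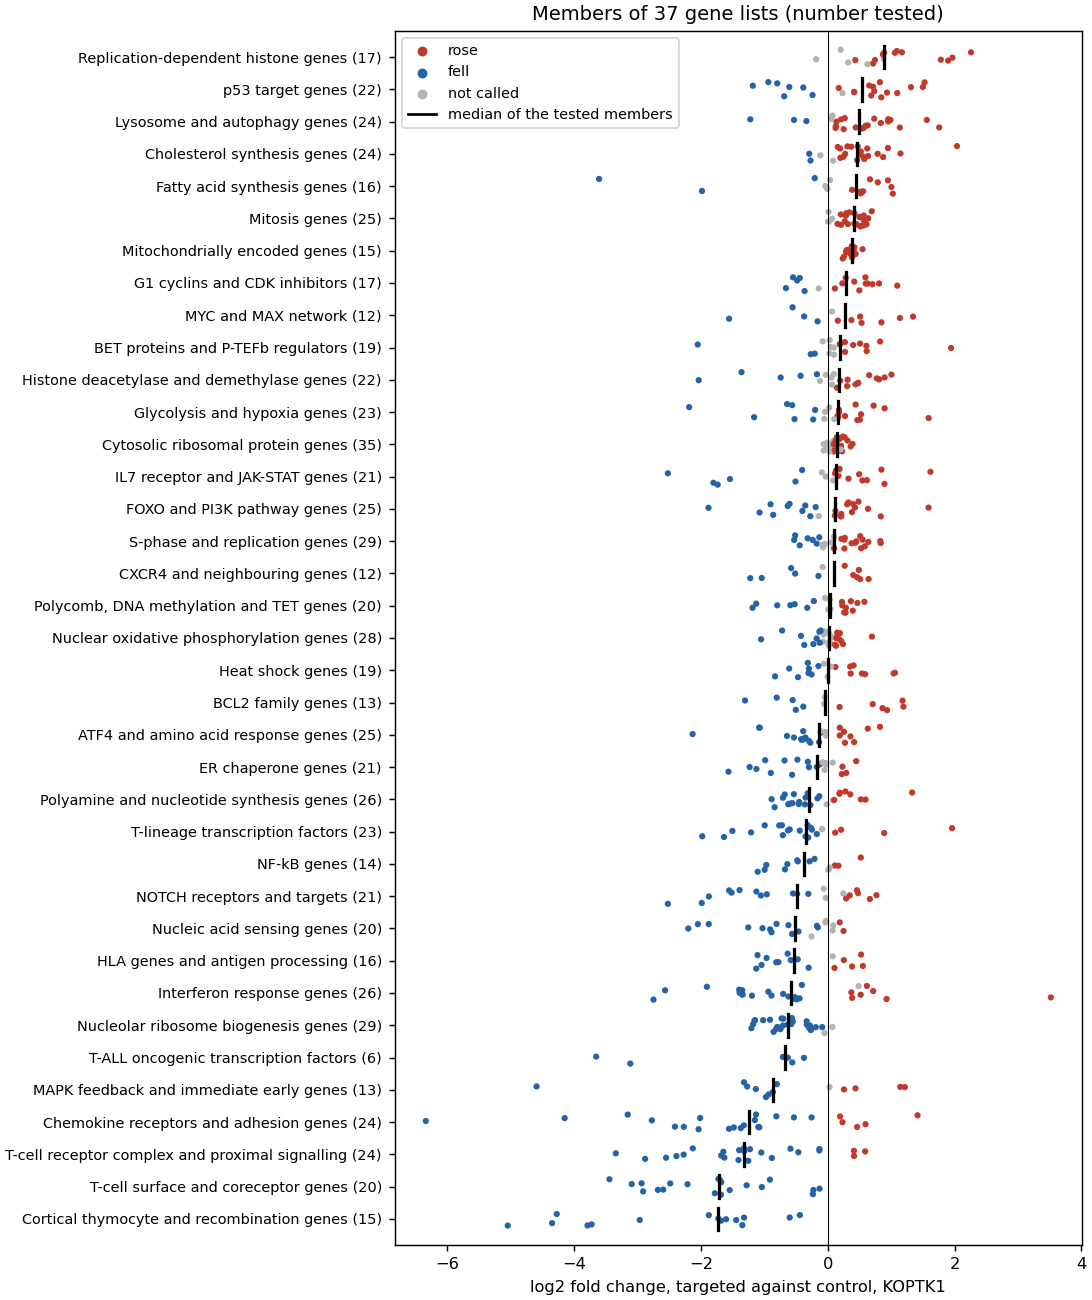
Log2 fold change of each tested member (points) in 37 gene lists, pooled KOPTK1 comparison, with the median of each list as a bar. The cortical thymocyte, T-cell surface and T-cell receptor lists have medians of -1.72, -1.71 and -1.32, and the histone list the highest, at 0.88.

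The effect in KOPTK1 was set against that in the other lines, pooled over guides and ASOs for CUTLL1 and with guides alone for HPB-ALL, which had no ASO libraries. The difference from CUTLL1 was called for 3670 of 13703 genes, 26.8%, of which 1848 were positive and 1822 negative. The difference from HPB-ALL was called for 3977 of 13841, 28.7%, of which 2094 were positive and 1883 negative. That count rests on the HPB-ALL controls, since it was 1152 and 997 without control 2 and 1209 and 1163 without control 1, and on HPB-ALL guide 1, without which 1405 were positive and 1096 negative. Of the genes tested in KOPTK1 alone, 3496 had a called difference from CUTLL1 and 3676 from HPB-ALL. The signs of the 2 effects differed for 787 and 1034 of these, counting genes with an effect of exactly 0 in 1 line. Many of the largest differences are of genes near 0 in the controls of 1 line. The same was therefore counted for genes with a control mean of 100 or more in both lines. There, 3058 of 10312 differed from CUTLL1, 171 of them by over 1 on the log2 scale, and 3225 of 10092 from HPB-ALL, 251 by over 1. The effects had opposite signs for 613 of these genes against CUTLL1 and for 817 against HPB-ALL.

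**Figure D4:**
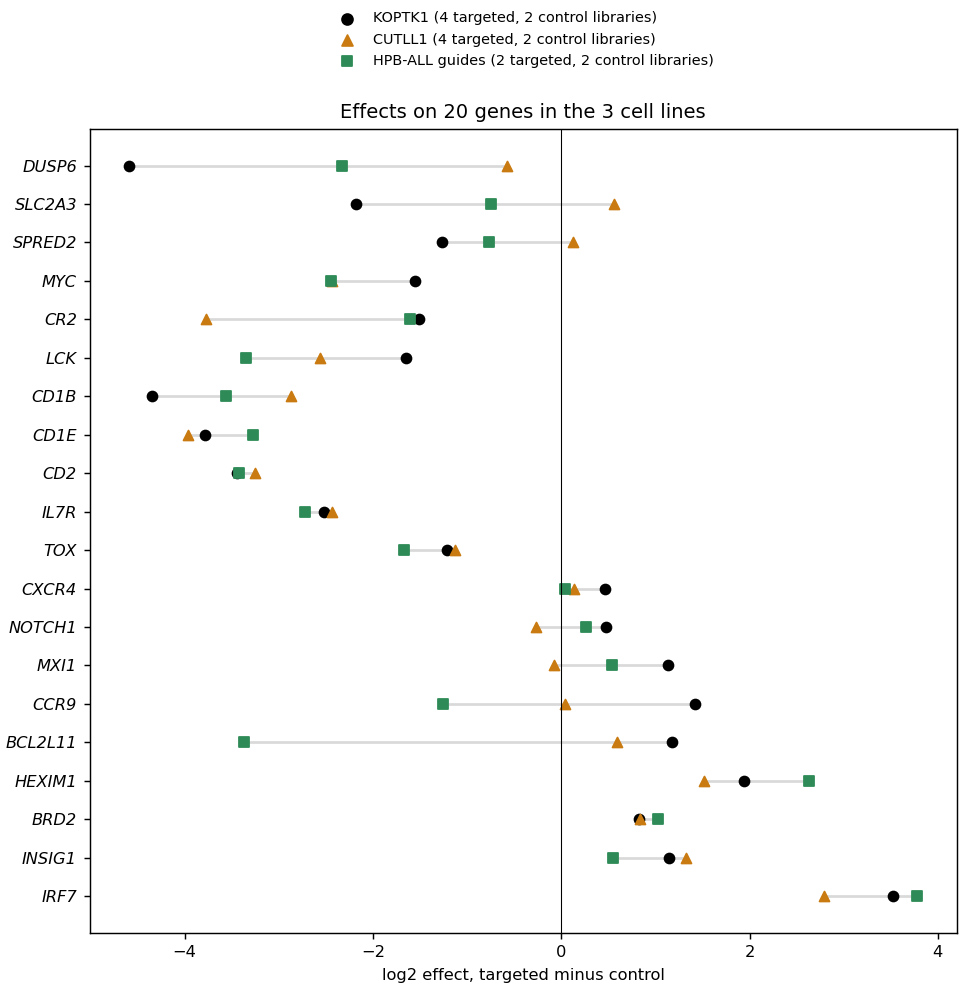
Log2 effect of targeting on 20 genes in KOPTK1 and CUTLL1 (guides and ASOs pooled) and in HPB-ALL (guides), 1 marker per line. The 3 markers of CD2 lie close together, while those of CCR9, DUSP6 and SLC2A3 lie apart.

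MYC fell less in KOPTK1 than in either other line. Its effect was -1.55 against -2.43 in CUTLL1, a difference of 0.88 ± 0.0635 SE, adjusted p = 9.82e-07, and with guides -1.60 against -2.44 in HPB-ALL, a difference of 0.85 ± 0.0576 SE, adjusted p = 1.05e-04. LCK also fell less, with differences of 0.91 and 1.67. CXCR4 rose in KOPTK1 by more than in CUTLL1, where it went from 24920 and 24422 to 27137, 26597, 26995 and 27914, or HPB-ALL, where it went from 32379 and 31151 to 33366 and 32078, with differences of 0.33 ± 0.0461 SE, adjusted p = 2.46e-04, and of 0.37 ± 0.0637 SE, adjusted p = 0.00471. For CD2 the differences were -0.19 ± 0.0804 SE, adjusted p = 0.111, and 0.047 ± 0.123 SE, adjusted p = 0.803, and neither was called.

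CCR9 rose in KOPTK1, and in CUTLL1, where it was abundant, it went from 10674 and 10862 to 10875, 10996, 11309 and 11123. The difference was 1.38 ± 0.0334 SE, adjusted p = 2.09e-10. In HPB-ALL it was low and went from 139 and 130 to 55.8 and 56.1. NOTCH1 rose in KOPTK1 but its effect in CUTLL1 was -0.27, from 26184 and 26751 to 21738, 21571, 22201 and 22295, a difference of 0.75 ± 0.0483 SE, adjusted p = 3.69e-07. In HPB-ALL NOTCH1 went from 34707 and 31801 to 40624 and 39041, and the difference of 0.13 ± 0.0770 SE had no call (adjusted p = 0.229). CD247 likewise had an effect of -1.04 in CUTLL1 and -0.55 in HPB-ALL, with differences of 1.45 ± 0.0510 SE, adjusted p = 1.44e-09, and of 0.93 ± 0.0570 SE, adjusted p = 6.80e-05. The histone gene HIST1H2BK had an effect of 2.93 in CUTLL1, a difference of -2.49 ± 0.0834 SE, adjusted p = 9.88e-10.

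DUSP6 fell far more in KOPTK1 than in CUTLL1, where it went from 3600 and 3800 to 2529, 2450, 2563 and 2413, a difference of -4.02 ± 0.118 SE, adjusted p = 4.89e-10. In HPB-ALL it was at 170 and 181 and then 34.3 and 33.8, and the difference was -2.27 ± 0.242 SE, adjusted p = 7.02e-04. SPRED2, a brake of the same route, had an effect of 0.12 in CUTLL1 and differed by -1.39. SLC2A3 went up in the CUTLL1 libraries, from 1207 and 1145 to 1729, 1727, 1779 and 1702, and differed by -2.74 ± 0.115 SE, adjusted p = 8.12e-09.

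Of genes at 100 or more in the controls of both lines, those with the 5 largest differences of each sign were read, a choice made after their values were seen. CEP128, a centriole protein, led both negative sets. It went from 1362 and 1376 to 71.4, 72.5, 70.1 and 95.2 in KOPTK1, while CUTLL1 had 3458 and 3596 and then 3565, 3692, 3513 and 3465, and HPB-ALL had 1460 and 1529 and then 1969 and 2112. The differences were -4.15 ± 0.131 SE, adjusted p = 7.15e-10, and -4.67 ± 0.107 SE, adjusted p = 1.20e-06. DAB2IP, a RAS GTPase-activating protein, went from 653 and 642 to 18.5, 10.4, 15.8 and 8.04 and differed by -4.00 from CUTLL1 and by -3.69 from HPB-ALL. ETV5, an ETS factor that follows ERK signals, went from 116 and 111 to 16, 18.4, 23.7 and 13.4 while in CUTLL1 it was abundant and went from 6033 and 6215 to 7509, 7250, 7335 and 7143, a difference of -2.88 ± 0.215 SE, adjusted p = 1.21e-06. On the positive side against HPB-ALL stood SLC38A1, which there went from 4804 and 4818 to 56.6 and 52.3 with an effect of -6.44, a difference of 5.39 ± 0.0890 SE, adjusted p = 1.94e-07, followed by TBC1D16, STOM, PMEPA1 and AARD. Against CUTLL1, the effect was more positive in KOPTK1 for AARD, CD248, CR2, GVINP1 and IKZF3.

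TAL1 and LMO2 cannot be set across lines in the same way. TAL1 was at 3.90 and 4.61 in the CUTLL1 controls and 2.64 and 1.90 in those of HPB-ALL, near the limit of detection, so no difference is given. LMO2 was at 3.90 and 32.2 and at 21.1 and 17.1. The same holds for all genes with a control mean under 20 in 1 of the lines compared, among them those with the largest fitted differences. CD93 was at 585 and 565 in the CUTLL1 controls and at 0 in all 6 KOPTK1 libraries. PIWIL3 and FGD5, which fell in KOPTK1, were at 0 in both CUTLL1 controls. SALL3, a developmental zinc finger factor, was at 169 and 143 in the HPB-ALL controls and at 0 and 0.652 in those of KOPTK1. TXNIP was low too in the CUTLL1 controls, at 13.7 and 21.9. BCL2L11, which rose in KOPTK1, was at 55.5 and 49.5 in the HPB-ALL controls and at 2.39 and 6.92 with guides. Its difference from HPB-ALL was 4.54 ± 0.526 SE, with a limma adjusted p = 9.79e-04.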

How the data were processed

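The authors deposited normalised counts (a signal, gene counts divided by 1 factor per library) for 57820 genes. Per the submitters' processing notes, STAR 1.4.2, DESeq2 and hg19 were used, in roles left unstated. The counter, annotation and strand setting of the counting were not given in the sources used here, so overlapping and antisense genes cannot be told apart. Per the labels' protocols, RNA was extracted with RNeasy plus and libraries were made with the NEBNext Ultra Directional kit. In every library 100% of values were whole multiples of 1 read (tolerance 1e-06), which gave the reads.

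limma 3.58.1 (R 4.3.3, moderated, trended) was fitted on log2(normalised count + 1) of the 6 libraries, for genes with a mean of 20 or more, with arm and modality as terms. Benjamini-Hochberg adjusted p-values were taken over all tested genes, with a threshold of 0.05. Differences between lines were interactions in fits of both lines, with their libraries. Alternatives were other pseudocounts, filters and scalings, edgeR 4.0.16 and DESeq2 1.42.0 on the recovered reads, the replicate block and leaving out libraries. The edgeR fit of the difference from CUTLL1 left out the library CUTLL1 ASO 1. Scripts were tested on simulated data.

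Named were the 12 largest rises and 12 largest falls at a level of 100 or more without overlap, up to 4 genes per list by p, CXCR4 with its neighbours and 10 other genes, and up to 5 per sign for each difference, of which only levels are given where 1 line had a control mean under 20. Other list members are examples. Some genes that these rules name are not reported here. The libraries, lists and rules were chosen with earlier results of these data known. Titles number guides and ASOs and descriptions call the same libraries replicates; they were read as different reagents and used as replicates. Promoters came from RefSeq and were matched by symbol.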

Additional observations from a re-analysis of the deposited data

Results flagged for a closer look

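The effect of targeting differed between KOPTK1 and another line by a test of the difference itself for the genes that follow, which had a control mean of 20 or more in both lines compared. Values are the KOPTK1 effect minus the effect in the other line on the log2 scale, with limma's adjusted p. The difference from CUTLL1 (guides and ASOs pooled) was 0.326 for CXCR4 (adjusted p = 0.000246), 0.881 for MYC (adjusted p = 9.82e-07), 0.749 for NOTCH1 (adjusted p = 3.69e-07), 0.177 for CD1E (adjusted p = 0.0114) and 0.428 for HEXIM1 (adjusted p = 2.4e-06).

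Against HPB-ALL, with guides alone, the difference was 0.374 for CXCR4 (adjusted p = 0.00471) and 0.846 for MYC (adjusted p = 0.000105). It was -0.445 for CD1E (adjusted p = 0.000796), -0.519 for RAG1 (adjusted p = 0.00354), -0.697 for HEXIM1 (adjusted p = 0.000416) and -0.24 for BRD2 (adjusted p = 0.0163).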

How the results depend on the processing

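Over the alternatives, the genes that rose numbered from 4127 to 5654 and those that fell from 4198 to 5893, against 4751 and 4967. Without 1 library at a time the ranges were 4127 to 4766 and 4288 to 5116. Quantile scaling gave 5654 and 4228. The replicate block, a term for guide 2 and ASO 2 together, gave 4605 and 4906. Both controls are numbered 1, so its targeting effect came from guide 1 and ASO 1 against the controls. Across the tested genes, guide 2 minus guide 1 correlated with ASO 2 minus ASO 1 at 0.0728, from these 2 pairs alone. Whether same-numbered libraries share a batch was not tested. Guide minus ASO calls ran from 0 to 38 positive and from 0 to 14 negative without 1 library, at 5 and 2 without ASO 1 and 38 and 14 without ASO 2. Without 1 library at a time, calls of the difference from HPB-ALL ran from 1152 to 2031 positive and from 997 to 1814 negative, against 2094 and 1883. The highest over all alternatives were 2353 positive with a pseudocount of 5 and 2400 negative with edgeR. They were lowest without HPB-ALL guide control 2 (1152 and 997), and were 1209 and 1163 without control 1, with 1096 negative without HPB-ALL guide 1; the cause was not tested.

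ZRANB3 reversed to 0.055 under quantile scaling, and its call was lost in 12 other alternatives. Of 3538 alternative values for 196 results on named genes, 3510 kept direction and side of the threshold, 26 lost their call, 1 gained one (CCNT2 without guide 2) and 1 reversed. With edgeR, 11 line differences of genes near 0 in 1 line, for which the report gives no difference, lost their call: CD93, PPARG, IL26, PIWIL3 and FGD5 against CUTLL1, and INHBE, ATP9A, NNMT, NPNT, CCR8 and SCEL against HPB-ALL. The edgeR fit against CUTLL1 also lacked the library CUTLL1 ASO 1. The medians of 3 lists (BCL2 family, heat shock and nuclear oxidative phosphorylation) changed sign under some alternative. Where 1 control or 1 targeted library of a kind was left out, the lone library was assumed to vary like the rest. Each modality has a single control, which limits the precision.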
